A study of Mus musculus with 6 samples.

Results

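The genes described here are 35 genes of glucose and lactate transport, glycolysis and pyruvate use, taken from a list of symbols with no threshold on their values, though the list was drawn up with earlier results of these data known. All 35 were found among the 49585 Ensembl genes counted in mouse haematopoietic stem cells (HSCs), and all 35 were among the 14785 genes with enough reads to be tested. HSCs are the rare bone marrow cells that renew the blood. They came from untreated C57BL/6 mice aged 8 to 16 weeks and were sorted as lineage-negative, Kit-, Sca-1-, CD150- and CD201-positive, CD48- and CD34-negative cells. The sort then parted them by surface CD38, an enzyme that breaks down NAD, into 3 CD38-positive (CD38hi) and 3 CD38-negative (CD38lo) libraries of bulk RNA. Each library pooled the HSCs of 10 mice, and the design text matches the libraries as 3 pairs without saying whether a pair came from the same mice.

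Glycolysis splits glucose into pyruvate in the cytosol, gains ATP and uses NAD as the electron acceptor at the Gapdh step. Pyruvate is then either turned into lactate by lactate dehydrogenase, which gives NAD back, or carried into mitochondria and oxidised by the pyruvate dehydrogenase complex, which the Pdk kinases switch off. Long-term HSCs are known for a reliance on glycolysis that is held in place by the hypoxia factor HIF-1 alpha and by Pdk2 and Pdk4. The question for these genes is whether their transcripts differ between HSCs with high and low surface CD38.

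No difference between the populations passed the test for any of the 35 genes. With edgeR's quasi-likelihood test and the pair as a block, 0 of 35 had a Benjamini-Hochberg adjusted p under 0.05 (adjusted p from 0.926 to 0.996), where 0.0135% of all tested genes were called (0.00676% in each direction). At an unadjusted p under 0.05 there were also 0 of 35, where the share over all tested genes was 5.08%. Without the pair in the model there were again 0 of 35, where 2.82% of tested genes had such a p (1.30% higher, 1.52% lower). DESeq2 and limma-voom each called 0 after adjustment and gave 1 at an unadjusted p under 0.05, which was Gpi1 in both (2.86% of 35, where 2.26% of tested genes were higher and 2.15% lower at such a p in DESeq2, and 2.60% and 2.87% in limma-voom). Fitted log2 fold changes, CD38-positive over CD38-negative, ran from -0.55 (Hk1) to 0.66 (Eno2), with a median of 0.038 against 0.0004 over all tested genes. The 95% interval held 0 for all 35 genes and lay between -1 and 1 on the log2 scale for 32; those of Hk1, Aldoc and Eno2 reached further.

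Total counts were 16771180 to 18558610 per library, so the floor of 3 counts lay at 0.166 to 0.183 CPM (CPM, counts scaled to a common library total with trimmed mean of M-values factors). The 35 genes had 9 to 30676 reads in a library, and 32 of them had at least 100 in each. Cd38 itself was higher in the CD38-positive libraries, with groups that did not overlap, at a mean of 47.2 ± 10.7 CPM (SD, n = 3) against 27.9 ± 6.70 CPM (SD, n = 3). Genes of other cell types were also measured: 14 granulocyte and monocyte markers, all with reads in all 6 libraries, took 16.8, 8.67 and 11.5% of counts in CD38-positive replicates 1, 2 and 3 and 13.3, 9.70 and 13.97% in their partners, although a lineage-negative gate usually removes such cells. The 10 stem cell markers, also present in all 6, summed to 629.7, 760.0 and 1339.5 CPM and 806, 1853 and 1152 CPM, so that CD38-negative replicate 2 stood above the rest. Erythroid genes took 0.276 to 0.829% of counts, T and NK cell genes 0.0135 to 0.0298%, megakaryocyte genes 0.0115 to 0.0232%, and endothelial and stromal genes 0.0106 to 0.0245%. Nkg7 alone, with 2090 to 5231 reads in a library, gave most reads of the T and NK cell list in each library. The 11 B and plasma cell genes took 0.0342 to 0.340% and were lower in CD38-positive libraries in each pair when summed, by log2 differences of -0.80, -1.84 and -2.68. Of these, the antibody genes Jchain, Igkc, Ighm and Igha were lower in all 3 pairs, and Igha (adjusted p = 0.00246 in edgeR) was 1 of the 2 genes called among all genes tested. Cd3e, Trac and Cdh5, defining T cell and endothelial genes, were at 0 in at least 1 library. The other genes of these lists had reads in all 6 libraries, 6 of 8 T and NK cell and 7 of 8 endothelial and stromal genes. They included the T cell genes Cd3g (6 to 18 reads) and Cd3d (9 to 32 reads). Wilson 95% intervals of these shares had half-widths of at most 0.017 points and cover counting error only. In such bulk samples fewer cells of a type and less RNA per cell cannot be told apart, and the part of other cells in the values below was not tested.

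**Figure D1:**
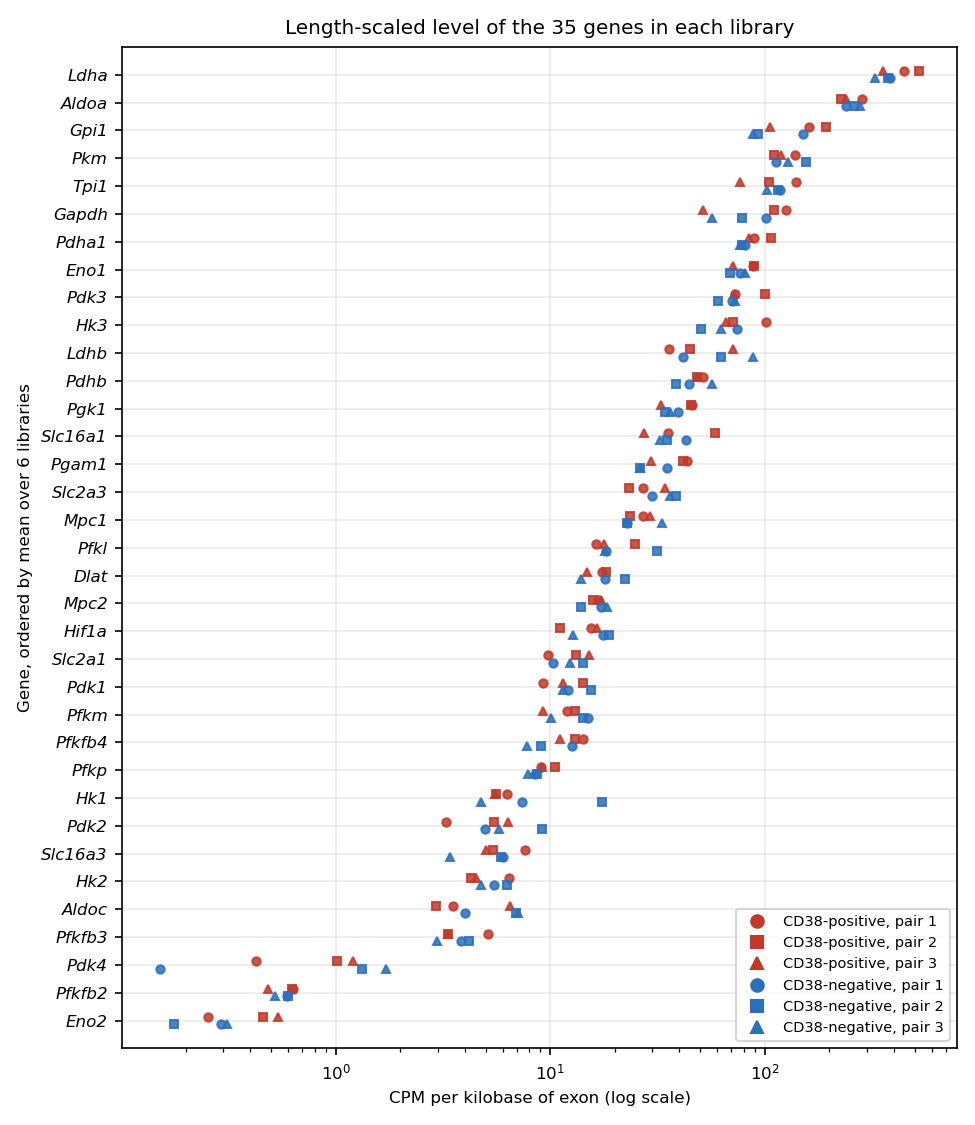
CPM per kilobase of exon (horizontal axis, log scale) of the 35 genes in each library, red for CD38-positive and blue for CD38-negative, with a marker shape per pair. Ldha is highest at a mean of 401 and Eno2 lowest at 0.339; red and blue points interleave for all genes but Pfkp and Pdha1.

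Levels were compared between genes per kilobase of annotated exon. That length joins the exons of all annotated transcripts of a gene, so it can exceed the length of the transcript in use. The order of genes and the isozyme shares below depend on it. Ldha, the muscle-type lactate dehydrogenase subunit, had the highest level of the 35 genes, with a mean of 401 CPM per kilobase over the 6 libraries, above 99.2% of tested genes. Aldoa, the main aldolase, followed at 255, then Gpi1 at 132, Pkm at 128 and Tpi1 at 109 CPM per kilobase. The ranges over libraries of Gpi1, Pkm and Tpi1 overlapped, so their order is within the spread. Eno2, Pfkfb2 and Pdk4 were lowest, at 0.339, 0.576 and 0.976 CPM per kilobase. Summed over isozymes, the steps from glucose to lactate had means of 84.2 for hexokinase, 42.4 for phosphofructokinase, 260.2 for aldolase, 33.7 for phosphoglycerate mutase, 79.5 for enolase and 459 CPM per kilobase for lactate dehydrogenase. Gapdh, Aldoa, Tpi1, Pgk1, Pgam1, Eno1 and Ldha have near-identical copies in the mouse genome, and reads shared with a copy may not have been counted, so their levels are uncertain. Reads counted at copies whose symbol is formed from the gene's name were at most 0.917% of a gene and its copies together for these genes, but 12.4% for Mpc1. Copies under other symbols were not counted, so these shares may be too low.

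Glucose enters by Slc2a1 and Slc2a3, carriers of the GLUT family. Slc2a3 was at 197, 168 and 249 CPM in CD38-positive replicates 1, 2 and 3 and 216, 281 and 263 CPM in their CD38-negative partners. It was lower in CD38-positive cells in each pair, by pair differences of -0.13, -0.74 and -0.084 on the log2 scale, but the groups overlapped and the log2 fold change was -0.32 (SE 0.20, adjusted p = 0.929 in edgeR). Slc2a1 was at 34.4, 46.5 and 53.2 CPM against 36.3, 49.9 and 43.5 CPM, with no common direction and a log2 fold change of 0.038 (SE 0.20, adjusted p = 0.983 in edgeR). Per kilobase, Slc2a3 made up most of the summed level of these carriers. The share of Slc2a1 was 26.5, 36.3 and 30.7% in CD38-positive replicates 1, 2 and 3 and 25.8, 26.8 and 25.4% in their partners, higher in CD38-positive cells in 3 of 3 pairs. Swapping populations within pairs gave an exact permutation p (both sides) of 0.25, as low as 3 pairs can go (0.559 adjusted over 19 isozyme shares).

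Monocarboxylate carriers move lactate and pyruvate across the cell membrane. Slc16a1 was at 157, 261 and 121 CPM against 191, 156 and 144 CPM, highest in CD38-positive replicate 2, with pair differences of -0.28, 0.74 and -0.24. Slc16a3, the carrier known for lactate export, was at 40.8, 28.8 and 26.8 CPM against 32.0, 31.2 and 18.2 CPM. Their log2 fold changes were 0.071 (SE 0.23, adjusted p = 0.978 in edgeR) and 0.26 (SE 0.22, adjusted p = 0.935 in edgeR), and both sets of groups overlapped.

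Hexokinase phosphorylates glucose and so holds it in the cell. Hk3 (ENSMUSG00000025877, GRCm38 chromosome 13, 55005985 to 55021385, minus strand), the isozyme known from myeloid cells, was at 374, 263 and 242 CPM in CD38-positive replicates 1, 2 and 3 and 275, 186 and 231 CPM in their CD38-negative partners. It was higher in CD38-positive cells in each pair, by 0.45, 0.50 and 0.067, with overlapping groups and a log2 fold change of 0.34 (SE 0.19, adjusted p = 0.926 in edgeR). The 14 granulocyte and monocyte markers had pair differences of 0.47, -0.10 and -0.42 in summed CPM, a sum led by S100a8 and Ngp. Gene by gene, 11 of the 14 had a log2 fold change above 0, with a median of 0.14 and medians of 0.45, 0.26 and -0.39 in the 3 pairs. Of the 14, 3 were higher in all 3 pairs, as Hk3 was: Lyz2 (0.35), Lcn2 (0.31) and Csf3r (0.31). In a fit without the pair block, the Hk3 log2 fold change was 0.339 with the granulocyte share as covariate and 0.347 without it. A part of these cells in the Hk3 values was not tested beyond this fit. Hk1 (ENSMUSG00000037012, GRCm38 chromosome 10, 62268855 to 62379908, minus strand), the general isozyme, was at 53.5, 47.9 and 47.1 CPM against 62.9, 149 and 40.8 CPM. The CD38-negative library of pair 2 stood alone at 149 CPM, and the other 5 lay between 40.8 and 62.9 CPM. Its log2 fold change of -0.55 (SE 0.29, adjusted p = 0.926 in edgeR) had a 95% interval of -1.17 to 0.070. Without pair 2 the log2 fold change was -0.028. The summed stem cell markers had pair differences of -0.36, -1.29 and 0.22, those of Hk1 were -0.23, -1.64 and 0.21, and a part of the markers in the Hk1 values was not tested. Hk2, the insulin- and hypoxia-responsive isozyme, was at 38.4, 25.5 and 26.9 CPM against 32.7, 37.5 and 28.3 CPM, a log2 fold change of -0.13.

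Within the hexokinase family, Hk3 took 88.9, 87.8 and 86.8% in CD38-positive replicates 1, 2 and 3 and 85.3, 68.0 and 86.8% in their partners, per kilobase. The low value was again that of CD38-negative replicate 2, where Hk1 took 23.6%, against 5.48 to 8.44% in the other 5 libraries. The share of Hk2 was 5.63, 5.26 and 5.95% in CD38-positive replicates 1, 2 and 3 and 6.26, 8.46 and 6.56% in their partners. The pair differences in the Hk2 share were -0.635, -3.20 and -0.608 points. Among the 19 isozyme shares compared, that of Hk2 was the only one whose groups did not overlap, and its exact permutation p was 0.25 (0.559 adjusted over the 19).

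**Figure D2:**
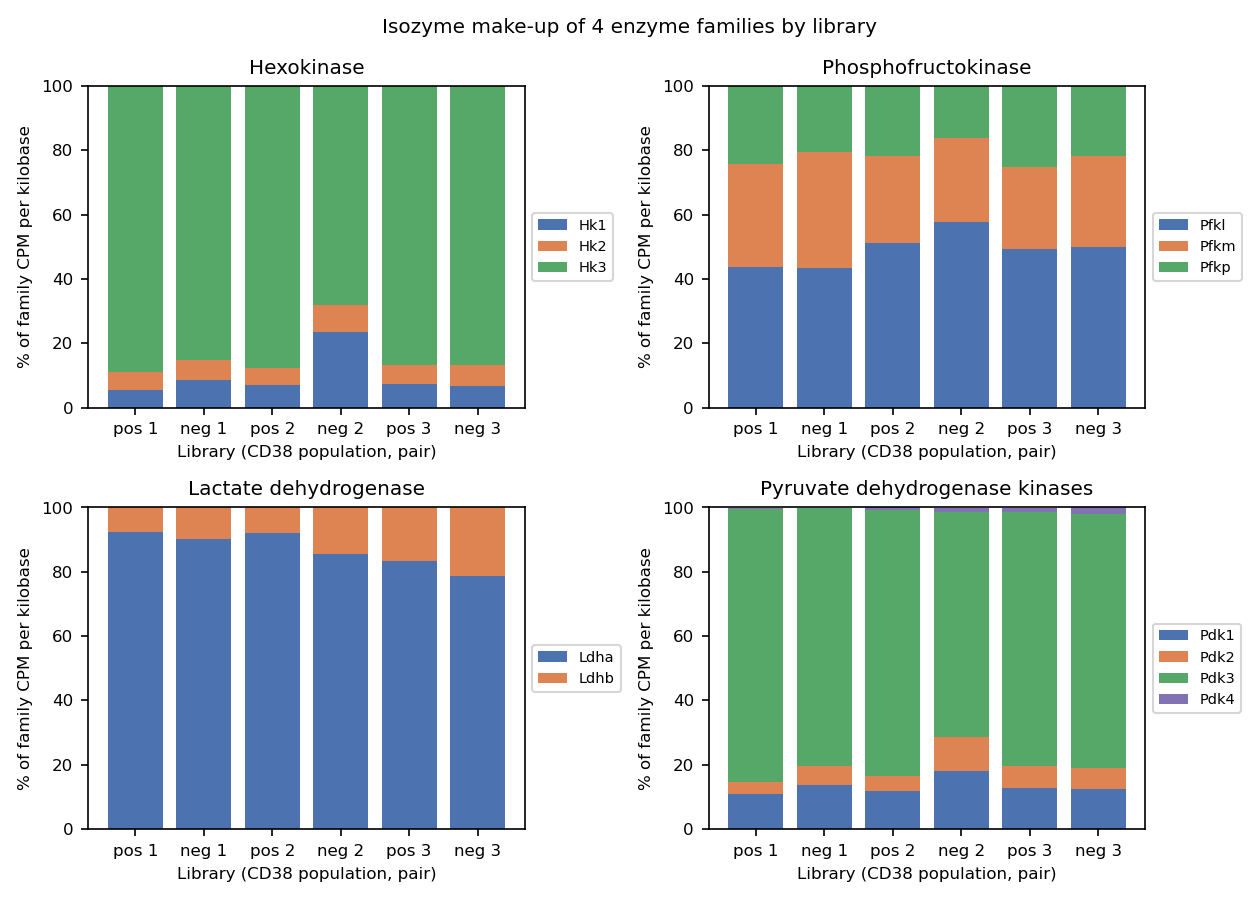
Stacked bars show each isozyme as a percentage of its family's CPM per kilobase (vertical axis) in the 6 libraries, ordered by pair, for hexokinase, phosphofructokinase, lactate dehydrogenase and the pyruvate dehydrogenase kinases. Hk3, Pdk3 and Ldha lead their families in each library, and CD38-negative replicate 2 has the largest Hk1 share at 23.6%.

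Phosphofructokinase commits sugar phosphate to glycolysis and is built from 3 subunit types. Pfkl, the liver type, was at 109.6, 166 and 119.5 CPM against 121, 209 and 121 CPM, and Pfkm, the muscle type, at 40.2, 43.6 and 30.8 CPM against 50.3, 47.6 and 33.8 CPM. Both were lower in CD38-positive cells in all 3 pairs, with pair differences of -0.14, -0.33 and -0.013 for Pfkl and -0.32, -0.13 and -0.13 for Pfkm on the log2 scale. Their groups overlapped, and the log2 fold changes were -0.16 and -0.20. Pfkp (ENSMUSG00000021196, GRCm38 chromosome 13, 6579768 to 6648777, minus strand), the platelet type, went the other way, at 122, 142 and 122 CPM in CD38-positive replicates 1, 2 and 3 and 115, 117 and 106 CPM in their CD38-negative partners. Each CD38-positive library lay above each CD38-negative one, 128 ± 11.3 CPM (SD, n = 3) against 112 ± 5.89 CPM (SD, n = 3), but the log2 fold change was 0.19 (SE 0.18, adjusted p = 0.936 in edgeR). Pfkp overlaps Pitrm1 on the other strand by 748 exonic bases, and reads there cannot be assigned because the strand setting of the counts was not given in the sources used here. Per kilobase, Pfkl took 43.5 to 57.7% of the family, Pfkm 25.4 to 36.1% and Pfkp 16.0 to 25.2%. This order depends on the annotated exon lengths of 6675, 3340 and 13401 bases, and in CPM Pfkp lay above Pfkm in each library. The Pfkp share was higher in CD38-positive cells in 3 of 3 pairs, by 3.70, 5.72 and 3.31 points (exact permutation p = 0.25), with overlapping groups.

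The Pfkfb enzymes make and remove fructose-2,6-bisphosphate, the main activator of phosphofructokinase. Pfkfb4 was at 69.1, 63.5 and 54.2 CPM against 61.5, 44.3 and 38.2 CPM, higher in CD38-positive cells in each pair, with a log2 fold change of 0.40 (SE 0.19, adjusted p = 0.926 in edgeR). The groups overlapped, since CD38-negative replicate 1 lay above CD38-positive replicate 3. Pfkfb3, the isoform known for high kinase activity, was at 38.7, 25.3 and 25.3 CPM against 29.2, 31.7 and 22.4 CPM, and Pfkfb2 at 4.62, 4.53 and 3.53 CPM against 4.29, 4.34 and 3.79 CPM. Their log2 fold changes of 0.086 and 0.023 came from pair differences of both signs.

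Among the other enzymes of the pathway, Gpi1 (ENSMUSG00000036427, GRCm38 chromosome 7, 34201330 to 34230336, minus strand), glucose phosphate isomerase, had the smallest p-value of the 35 genes. It was at 1043, 1248 and 680.1 CPM in CD38-positive replicates 1, 2 and 3 and 972, 601 and 566 CPM in their CD38-negative partners. All 3 pairs were higher in CD38-positive cells, by 0.10, 1.053 and 0.26, and pair 2 gave most of the difference. The groups overlapped, because CD38-positive replicate 3 lay below CD38-negative replicate 1. The log2 fold change was 0.47 (SE 0.23, adjusted p = 0.926 in edgeR), with a 95% interval of -0.015 to 0.96; without pair 2 it was 0.17. An antisense-strand non-coding gene, Gm26762, shares 741 exonic bases with Gpi1 and had 21287 reads over the 6 libraries against 88183 for Gpi1.

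Pgam1, which moves the phosphate of phosphoglycerate, was at 86.0, 82.7 and 58.4 CPM against 69.7, 51.8 and 52.3 CPM, higher in CD38-positive cells in each pair, a log2 fold change of 0.38 (SE 0.19, adjusted p = 0.926 in edgeR). Aldoc, the brain-type aldolase, was at 11.5, 9.56 and 21.3 CPM against 13.1, 22.6 and 23.1 CPM, lower in each pair, a log2 fold change of -0.51 (SE 0.27, adjusted p = 0.926 in edgeR). Its pair difference was -1.23 in pair 2 and -0.19 and -0.11 in pairs 1 and 3, and Aldoc took only 1.22 to 2.66% of aldolase per kilobase.

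Gapdh, which reduces NAD and is a common reference gene, was at 522, 455 and 213 CPM in CD38-positive replicates 1, 2 and 3 and 418, 324 and 236 CPM in their CD38-negative partners. Pairs 1 and 2 were higher in CD38-positive cells and pair 3 lower, at 0.32, 0.49 and -0.14, and the log2 fold change was 0.22 (SE 0.20, adjusted p = 0.936 in edgeR). Pkm, the pyruvate kinase that makes ATP and pyruvate, was at 692, 550.4 and 597 CPM against 563, 783 and 642 CPM, a log2 fold change of -0.11; gene-level counts do not part its splice forms. The other enzymes of this stretch ranged over the libraries from 664 to 830.0 CPM (Aldoa), 210.3 to 384 CPM (Tpi1), 73.8 to 103 CPM (Pgk1), 371 to 477 CPM (Eno1) and 0.834 to 2.54 CPM (Eno2). Their log2 fold changes were -0.055, -0.10, 0.17, 0.13 and 0.66, and in each of them at least 1 pair went against the others.

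Lactate dehydrogenase joins A subunits, from Ldha, and B subunits, from Ldhb; A-rich enzyme is known to favour lactate formation. Ldha (ENSMUSG00000063229, GRCm38 chromosome 7, 46841475 to 46855627, plus strand) was at 1472, 1736 and 1175 CPM in CD38-positive replicates 1, 2 and 3 and 1271, 1242 and 1077 CPM in their CD38-negative partners. Ldhb (ENSMUSG00000030246, GRCm38 chromosome 6, 142490249 to 142507957, minus strand) was at 56.4, 70.4 and 111 CPM against 65.3, 98.7 and 138 CPM. In each pair Ldha was higher and Ldhb lower in CD38-positive cells. The pair differences were 0.21, 0.48 and 0.13 for Ldha and -0.21, -0.49 and -0.31 for Ldhb. In both genes the groups overlapped, and the log2 fold changes were 0.27 (SE 0.20, adjusted p = 0.932 in edgeR) for Ldha and -0.34 (SE 0.18, adjusted p = 0.926 in edgeR) for Ldhb. Neither passed the adjusted threshold. Ldhb varied more between pairs than within them: both libraries of pair 3 lay above both of pair 2, and those lay above both of pair 1. The Ldhb share of the family per kilobase was 7.48, 7.88 and 16.6% in CD38-positive replicates 1, 2 and 3 and 9.77, 14.3 and 21.3% in their partners. The Ldha share was accordingly higher in CD38-positive cells in 3 of 3 pairs, by 2.29, 6.47 and 4.65 points (exact permutation p = 0.25), with overlapping groups.

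The region just before the start of both genes is shown because Ldha and Ldhb differed in opposite directions in each of the 3 pairs. HIF-1 binds DNA at ACGTG or GCGTG cores, and Ldha is a textbook target. The 250 bases before the RefSeq start sites (build GRCm38.p6) were searched for both words on both strands; capitals mark the matches, read as CACGT or CACGC where the core lies on the other strand. The word CACGTG is also the E-box that other factors bind. Ldha has 2 RefSeq start sites here, with windows chr7:46845554-46845803 (site 1) and chr7:46846832-46847081 (site 2), plus strand, and the Ldhb window is chr6:142507958-142508207, minus strand, each 5′ to 3′.
Ldha site 1: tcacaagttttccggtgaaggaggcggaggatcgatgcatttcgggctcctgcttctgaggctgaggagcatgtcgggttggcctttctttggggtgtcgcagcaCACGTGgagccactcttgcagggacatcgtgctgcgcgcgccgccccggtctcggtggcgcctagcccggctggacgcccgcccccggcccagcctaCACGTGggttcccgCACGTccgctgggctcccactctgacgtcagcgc
Ldha site 2: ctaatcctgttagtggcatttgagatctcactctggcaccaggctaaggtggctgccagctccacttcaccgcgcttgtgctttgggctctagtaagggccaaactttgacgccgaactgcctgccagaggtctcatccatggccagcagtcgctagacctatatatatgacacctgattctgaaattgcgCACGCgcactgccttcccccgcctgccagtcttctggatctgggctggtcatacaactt
Ldhb: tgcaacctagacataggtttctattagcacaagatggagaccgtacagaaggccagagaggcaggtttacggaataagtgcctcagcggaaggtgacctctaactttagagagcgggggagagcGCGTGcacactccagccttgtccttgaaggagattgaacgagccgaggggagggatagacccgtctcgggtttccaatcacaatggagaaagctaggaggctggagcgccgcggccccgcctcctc
The first 30 bases after site 2, and after the Ldhb site, were found in a GENCODE transcript of the gene, while those after Ldha site 1 were not. The windows of Ldha site 2 and of Ldhb each had 1 match, a GCGTG core. The window of Ldha site 1 had 5 matches at 3 places, as 2 of them are CACGTG, which reads alike on both strands. Over the list, 34 of 35 genes had an entry, and 40 of their 51 start sites (78.4%) held at least 1 core, against 38.6% of all 32851 windows of this length and 44% of the 21263 at protein-coding genes. The compared windows were not matched for expression or base content, both words hold the letters CG, and some genes gave several windows. Start sites of a gene can overlap, and a match is a description of the letters and not a bound site. The difference between these shares, and a part of HIF-1 in the expression values, was not tested.

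**Figure D3:**
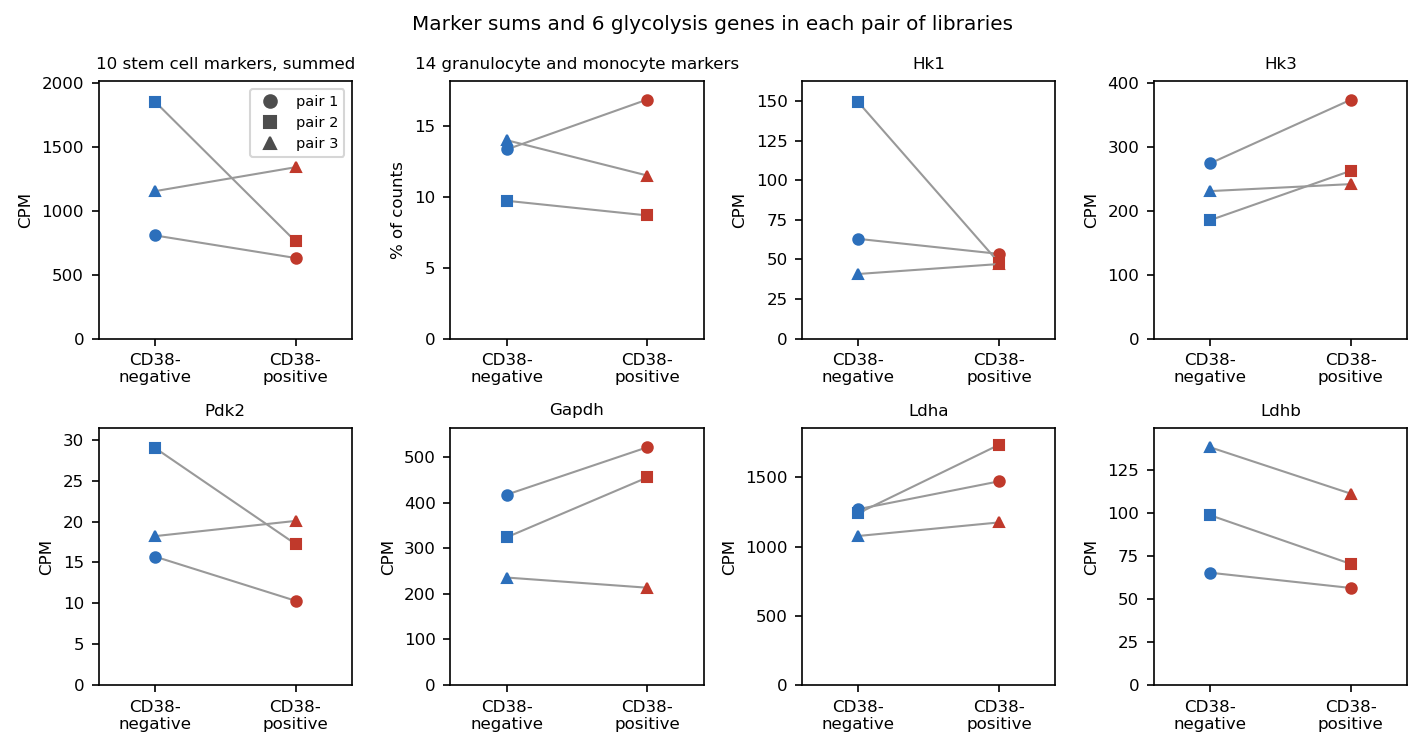
Each panel joins the 2 libraries of a pair by a line, CD38-negative (blue) to CD38-positive (red), in CPM or in percent of counts, for 2 marker lists and 6 genes. Ldha goes up and Ldhb down along all 3 lines, while Hk1 and the stem cell markers share one high library, the CD38-negative library of pair 2.

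Pyruvate enters mitochondria through a carrier of Mpc1 and Mpc2. Mpc1 was at 56.4, 49.0 and 60.7 CPM against 47.3, 47.3 and 69.2 CPM and Mpc2 at 123, 116 and 127 CPM against 126, 102 and 135 CPM, with log2 fold changes of 0.038 (95% interval -0.38 to 0.46) and 0.020 (-0.37 to 0.41). The non-coding gene 4930506C21Rik shares 480 exonic bases with Mpc1 on the other strand. Inside, the pyruvate dehydrogenase complex turns pyruvate into acetyl-CoA. Pdha1 (ENSMUSG00000031299, GRCm38 chromosome X, 160122209 to 160138413, minus strand), its catalytic alpha subunit, was at 333, 399.9 and 314 CPM in CD38-positive replicates 1, 2 and 3 and 302, 293 and 286 CPM in their CD38-negative partners. All CD38-positive libraries lay above all CD38-negative ones, 349 ± 45.1 CPM (SD, n = 3) against 294 ± 8.10 CPM (SD, n = 3), but the gap between the groups was narrow and the log2 fold change was 0.24 (SE 0.19, adjusted p = 0.932 in edgeR). Map3k15 overlaps Pdha1 on the other strand by 603 exonic bases. Pdhb, the beta subunit, and Dlat, the transacetylase, ranged over 149 to 219.5 CPM and 68.4 to 109 CPM, with log2 fold changes of 0.11 and -0.084 and no common direction.

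Pyruvate dehydrogenase kinases shut the complex and so keep pyruvate out of oxidation. Pdk3 was the leading isozyme, at 186, 256 and 184 CPM in CD38-positive replicates 1, 2 and 3 and 179.9, 155 and 185 CPM in their CD38-negative partners, and took 69.9 to 84.9% of the family per kilobase. The highest value was that of CD38-positive replicate 2, and the log2 fold change was 0.25 (SE 0.21, adjusted p = 0.932 in edgeR); without pair 2 it was 0.0057. Pdk1, a known HIF-1 target, was at 72.1, 111 and 89.4 CPM against 93.8, 121 and 89.4 CPM; it was lower in each pair, but in pair 3 both values round to 89.4 CPM. Its log2 fold change was -0.17 (SE 0.19, adjusted p = 0.943 in edgeR). Pdk2 was at 10.3, 17.3 and 20.1 CPM against 15.7, 29.0 and 18.2 CPM, lower in pairs 1 and 2 and higher in pair 3, a log2 fold change of -0.41 (SE 0.25, adjusted p = 0.928 in edgeR). Like Hk1, it was highest in the CD38-negative library of pair 2. Pdk4 was low throughout, with 25 reads against 9 in pair 1, 63 against 84 in pair 2 and 77 against 99 in pair 3 (CD38-positive first), or 1.499, 3.56 and 4.25 CPM against 0.536, 4.67 and 6.05 CPM. The libraries of pair 1 were the lowest of both groups, the pair differences were 1.33, -0.38 and -0.50, and the fitted value of 0.020 changed sign without the pair block (-0.27). Its 95% interval was -0.84 to 0.88, the second widest of the list after that of Eno2.

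Hif1a encodes HIF-1 alpha, which switches on many of the genes above when oxygen is low and is controlled largely through the stability of its protein. It was at 91.1, 65.9 and 97.7 CPM in CD38-positive replicates 1, 2 and 3 and 104, 110.5 and 75.3 CPM in their CD38-negative partners. Pairs 1 and 2 were lower in CD38-positive cells and pair 3 higher, at -0.18, -0.74 and 0.37, and the log2 fold change was -0.19 (SE 0.22, adjusted p = 0.945 in edgeR). An antisense gene, Gm15283, overlaps it by 330 exonic bases and had 987 reads against 9413 for Hif1a.

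**Figure D4:**
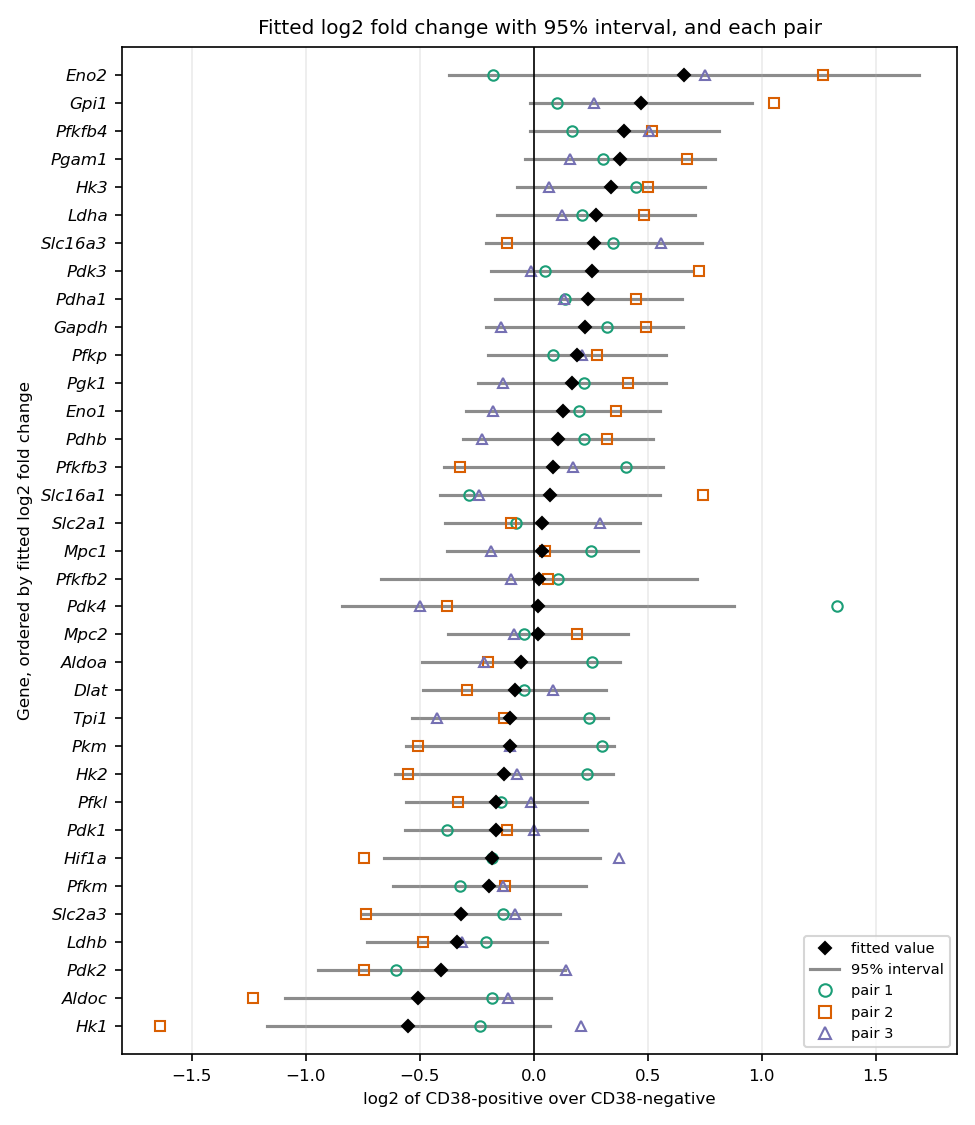
Fitted log2 fold changes, CD38-positive over CD38-negative (black diamonds), with 95% intervals (grey bars) and the difference in each pair (open symbols), for the 35 genes. All intervals include 0, and the symbols of pair 2 lie farthest out for 25 of the 35 genes.

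Over the whole list, 21 of 35 genes (60%) had a log2 fold change above 0, where 50.1% of all tested genes did. There were 7 genes higher in CD38-positive cells in all 3 pairs (20%, against 13.2% of tested genes): Hk3, Gpi1, Pfkp, Pgam1, Pfkfb4, Ldha and Pdha1. Another 6 were lower in all 3 (17.1%, against 11.3%): Slc2a3, Pfkl, Pfkm, Aldoc, Ldhb and Pdk1. Of these 13, the 3 phosphofructokinase and 2 lactate dehydrogenase genes lay on both sides within their step, and the other 8 did not. Without library scaling the genes lower in all 3 pairs numbered 2. The share over all tested genes without scaling is not given here, so this count was not read as a result. In 2 genes, Pfkp and Pdha1, the groups did not overlap with CD38-positive above (3.33% of tested genes), and in 0 with CD38-positive below (3.19%). Without library scaling neither gene had groups apart, and the share over all tested genes is again not given.

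Pair 2 held the largest of the 3 pair differences for 25 of the 35 genes (71.4%, against 52.1% of all tested genes) and pair 3 for 3 (8.57%, against 31.8%). The median size of the difference over the 35 genes was 0.22, 0.45 and 0.16 on the log2 scale in pairs 1, 2 and 3, and over all tested genes 0.20, 0.44 and 0.30. Without pair 2 the log2 fold change of 14 genes kept its sign but was over 1.5 times smaller, including those of Slc2a3 (-0.12), Aldoc (-0.16), Ldha (0.16) and Pdha1 (0.12), 10 changed sign, 4 were over 1.5 times larger and 7 stayed within that factor. The share of mitochondrially encoded genes was 4.28, 1.44 and 2.69% of counts in the CD38-positive libraries and 3.68, 3.74 and 4.43% in their partners, so that CD38-positive replicate 2 was lowest; its part in the pair 2 differences was not tested. Among single libraries, CD38-positive replicate 1, which had the largest granulocyte and monocyte share, held the highest value for 11 of the 35 genes (31.4%, against 15.6% of tested genes). CD38-negative replicate 3, with the next largest share (13.97%), held the highest value for 6 (17.1%, against 18.8%) and the lowest for 9 (25.7%, against 20.0%). The part of these markers, of cells that a lineage-negative gate usually removes, in the values was not tested.

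Neighbouring pathways were described from lists of other genes, of which 0 passed the adjusted threshold in edgeR. Of 34 further glycolysis and pyruvate genes, 27 could be tested, with a median log2 fold change of -0.0042, 1 gene higher and 1 lower at an unadjusted p under 0.05 (2.47% and 2.61% of tested genes). The higher one was Adpgk, an ADP-dependent glucokinase, at 813, 913 and 709.8 CPM against 747, 349 and 521 CPM, a log2 fold change of 0.65 (SE 0.24, adjusted p = 0.925 in edgeR). The lower one was Fbp1, a gluconeogenic phosphatase, at 14.9, 6.22 and 12.1 CPM against 14.5, 12.4 and 21.8 CPM, -0.60 (SE 0.27, adjusted p = 0.926 in edgeR). The 9 pentose phosphate genes had a median of 0.33, with 6 of 9 higher in all 3 pairs, where 13.2% of all tested genes were. Yet the 1 gene at an unadjusted p under 0.05, Rpia, a ribose phosphate isomerase, was lower (2.61% of tested genes). It was at 31.2, 7.81 and 9.65 CPM against 21.6, 27.1 and 22.6 CPM, -0.83 (SE 0.36, adjusted p = 0.926 in edgeR).

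The 12 genes of glycogen metabolism had a median of 0.27, with 5 of 12 higher in all 3 pairs, where 13.2% of all tested genes were. At an unadjusted p under 0.05 there were 2 genes, both higher, where 2.47% of tested genes were higher at such a p. These were the glycogen phosphorylases Pygl and Pygm. Pygl was at 530.0, 536 and 403 CPM against 460.1, 249 and 316 CPM, 0.55 (SE 0.22, adjusted p = 0.925 in edgeR), and Pygm at 10.1, 19.9 and 19.1 CPM against 6.61, 12.3 and 7.70 CPM, 0.87 (SE 0.26, adjusted p = 0.893 in edgeR), both with overlapping groups. The 10 genes of the shuttles that pass cytosolic NADH to mitochondria had a median of 0.18 and 0 genes at an unadjusted p under 0.05 (5.08% of tested genes). Among HIF regulators and partners 11 of 12 were tested, with a median of -0.077 and 1 gene lower at an unadjusted p under 0.05 (2.61% of tested genes). This was Meis1, a transcription factor known to act on Hif1a in HSCs. It was at 105, 141 and 224 CPM against 166, 329 and 225 CPM, -0.63 (SE 0.23, adjusted p = 0.925 in edgeR), and in pair 3 its 2 values were nearly equal. HIF targets outside the 35 genes had a median of -0.086 over 16 tested and 0 at an unadjusted p under 0.05 (5.08% of tested genes).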

How the data were processed

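Bulk RNA sequencing counts of 6 libraries, 3 CD38-positive and 3 CD38-negative, were used. The authors deposited raw read counts, a file per library with a row per Ensembl gene; cutadapt, STAR and HTSeq 0.6.1p1 with GRCm38 (mm10) are named per the submitters' processing notes, and their settings, strand and annotation release are not given in the sources used here. Symbols matched 49326 of 49585 identifiers; coordinates and exon lengths came from GENCODE M21 (GRCm38), promoter windows from RefSeq (GRCm38.p6).

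In R 4.3.3, genes were kept by filterByExpr (14785), scaled by TMM and tested with edgeR 4.0.16 by quasi-likelihood (glmQLFit, glmQLFTest), the model holding the pair and the population, with Benjamini-Hochberg adjustment over all tested genes and a threshold of 0.05; the procedure was tested on simulated counts. Standard errors and 95% intervals came from the quasi-F statistic. Pair differences are log2 ratios of CPM with 0.1 added. The pairing is that of the series' design text; after subtracting each population's mean, the partners of a pair correlated across genes at 0.341, 0.118 and 0.240. Isozyme shares were compared by swapping populations within pairs. P-values measure the spread between these pooled libraries only.

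The genes and lists were chosen with earlier results of these data known. Values in each library are given for 25 of the 35 genes listed by role and for any other that differed one way in all 3 pairs or had an unadjusted p under 0.05; from the other pathway lists, up to 8 genes with an unadjusted p under 0.05. The alternatives were the fit without the block, DESeq2 1.42.0, limma-voom (limma 3.58.1), DESeq2 size factors, unscaled totals, 2 other filters, the granulocyte share as covariate, a GC correction and leaving out each pair.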

Additional observations from a re-analysis of the deposited data

How the results depend on the processing

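No gene of the 35 passed an adjusted p of 0.05 under any of the 12 alternatives, with adjusted p-values of single genes from 0.402 (Hk1, edgeR without pair 3) to 0.9999. Without the replicate block the median log2 fold change of the 35 genes was 0.029, against 0.038 with it, and the block changed no call; over the other alternatives the median ran from 0.020 to 0.051, and with 1 pair omitted it lay between -0.019 and 0.083. Genes with an unadjusted p under 0.05 numbered 1 higher (Gpi1) with DESeq2, limma-voom or no filter, 1 lower (Hk1) with no filter, and 0 to 3 lower when a pair was left out, the 3 being Hk1, Aldoc and Pdk2 without pair 3 (8.57% of 35). Over all genes tested, the shares lower at such a p were 2.66% with no filter and 4.51% without pair 3, and the share higher was 2.40% with no filter. With unscaled library totals 2 genes were lower in all 3 pairs and 0 had groups that did not overlap. Counts over the 2 pairs left, added after seeing the data, were 8 to 14 genes higher and 8 to 11 lower in both. For these counts and those with unscaled totals the shares over all tested genes are not given here, and the counts were not read as results. Of 420 alternative values of single genes, 400 kept their direction; 20 of the 35 genes kept it throughout. Pdk4 changed sign without the block (-0.27), in limma-voom (-0.15) and with the granulocyte covariate (-0.36). The 15 genes whose sign changed when a pair was left out, 10 of them without pair 2, had log2 fold changes over the 3 fits of Slc2a1 -0.090 to 0.096, Slc16a1 -0.28 to 0.25, Hk2 -0.31 to 0.069, Aldoa -0.21 to 0.027, Tpi1 -0.28 to 0.055, Eno1 -0.0025 to 0.28, Pkm -0.31 to 0.085, Pfkfb2 -0.019 to 0.083, Pfkfb3 -0.076 to 0.28, Mpc1 -0.069 to 0.15, Mpc2 -0.077 to 0.072, Pdhb -0.016 to 0.27, Dlat -0.17 to 0.0081, Pdk4 -0.45 to 0.35, Hif1a -0.47 to 0.082. Among the isozyme shares, the differences of Slc16a1 (-5.78 to 0.177 points) and Mpc1 (-1.95 to 1.65 points) changed sign when a pair was left out. Levels under 3 counts (0.166 to 0.183 CPM) could not be told from 0.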

Other observations

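Gapdh, often used to scale other transcripts, had the widest range of the 10 genes with the highest length-scaled levels: its highest library (CD38-positive replicate 1) was 2.44-fold above its lowest (CD38-positive replicate 3), while the range was 1.25-fold for Aldoa and 1.29-fold for Eno1. Both extremes belonged to the same population. Over all 35 genes the narrowest ranges were those of Aldoa, Eno1 and Pfkfb2 (1.31-fold), and the widest that of Pdk4 (11.3-fold).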
